A study of Felis catus with 12 samples.

Results

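Mitochondria import nearly all of their proteins from the cytosol and exchange metabolites across an otherwise tight inner membrane. Proteins enter through the TOM complex of the outer membrane and are passed to the TIM23 complex, which handles proteins with a presequence, or through small chaperones of the intermembrane space to the TIM22 complex, which inserts carriers into the inner membrane. Metabolites cross the outer membrane through the VDAC channels and the inner membrane through carriers of the SLC25 family, among them the adenine nucleotide and phosphate carriers that the heart uses to make and export ATP. The genes described here are those of the deposited count table whose symbol is VDAC, TOMM, TIMM or SLC25A followed by a digit. They were 72 of 30785 genes listed, namely 3 VDAC, 10 TOMM, 13 TIMM and 46 SLC25A genes. The rule uses the symbol only.

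RNA was taken after death from the left ventricle of 12 client-owned cats and read as RNA, without conversion to cDNA, by Oxford Nanopore sequencing. Each cat gave 1 library. The libraries fell on 3 flow cells of 4 barcodes each, here called A (cats 11, 23, 30 and 31), B (cats 10, 15, 35 and 36) and C (cats 22, 29, 37 and 38); the prefix shared by library names was read as the flow cell. Outcome was joined from the study's cohort table through the cat number. Of these cats, 6 had congestive heart failure (HF), 3 had arterial thromboembolism (ATE) and 1 had no known cardiac death. The outcome of the other 2 libraries was treated as unknown, because the cat numbers in their labels (22 and 29) are not among the sequenced cats that the study lists. The groups rest on clinical outcome and reason for euthanasia, not on a full cardiac diagnosis, and the cats differed in age. The study's figure captions describe its ATE group as HF with arterial thromboembolism, so heart failure was not confined to the HF group. Outcome was divided unevenly over the flow cells. A held 3 HF cats and 1 ATE cat, and B held 2 HF cats, 1 ATE cat and the cat without known cardiac death. C held 1 HF cat, 1 ATE cat and the 2 libraries of unknown outcome. Each p-value therefore measures the spread between cats with 1 library each, and a difference between flow cells cannot be told apart from a difference between the cats loaded on them.

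Each library held 789257 to 2263110 reads on genes. The deposited value, called normalised read count below, is the number of reads on a gene divided by a size factor of its library. Markers of cardiomyocytes took 104462 to 160814 CPM (reads scaled to a common library total) in every library, with all 8 of the markers analysed detected in each, and adipocyte markers took 9.73 CPM at most. Fewer cells of a type and less RNA per cell cannot be told apart in such tissue samples. A gene was tested when 3 or more libraries held 10 or more reads of it, which left 8820 genes, and 56 of the 72 carrier and import genes passed this filter (3 VDAC, 8 TOMM, 13 TIMM and 32 SLC25A genes). Of the 16 that did not pass, 11 had some reads and 5 had none in any library.

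Reads on the carrier and import genes were concentrated on 2 carriers used to make and export ATP. Together the 72 genes took 246166 reads, 1.56% of all reads on genes and between 0.960% and 2.13% of each library. SLC25A4, the adenine nucleotide translocase of heart and skeletal muscle, was read 4878 to 16135 times per library, and SLC25A3, the carrier that brings phosphate in for ATP synthase, 3038 to 8696 times. These 2 genes held between 56.3% (cat 11) and 77.7% (cat 15) of the reads on all 72 genes. In direct RNA sequencing each read is 1 RNA molecule, though a read has to be long enough to be assigned, so reads were not divided by gene length here, and counts are compared between genes only as reads.

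**Figure D1:**
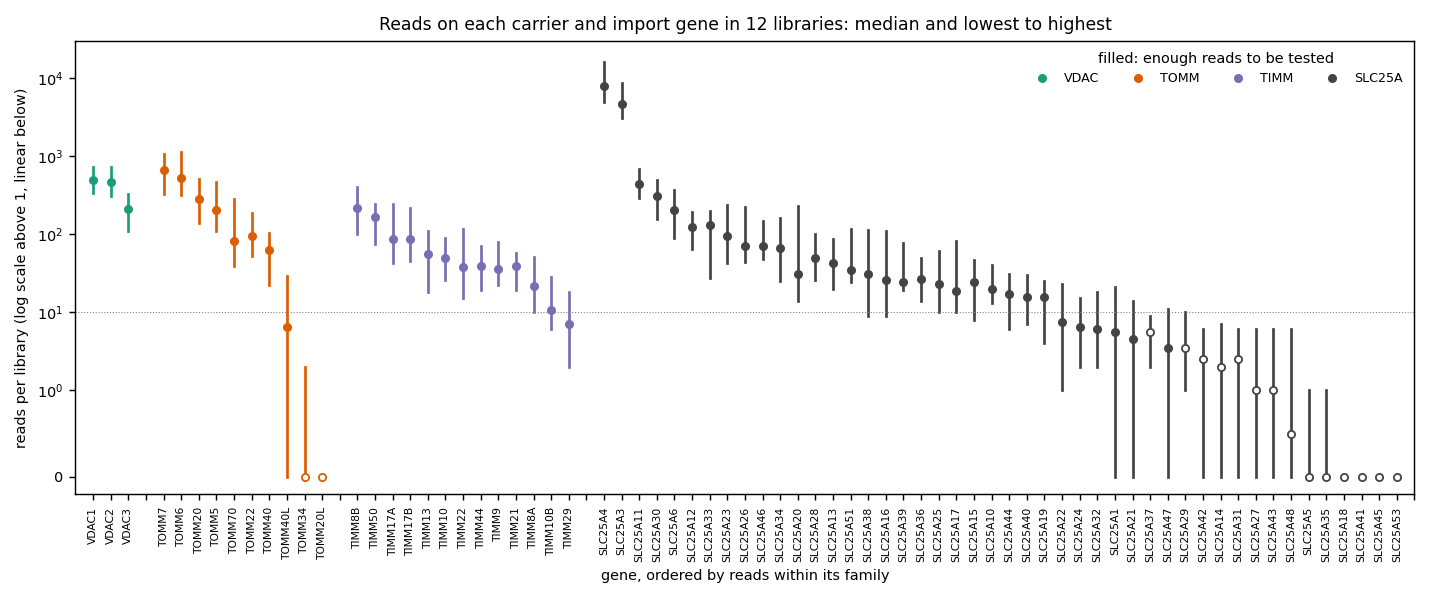
Reads per library on each of the 72 genes (vertical axis, log scale above 1 read and linear below), ordered by total reads within the VDAC, TOMM, TIMM and SLC25A families. Points are medians over 12 libraries and lines run from the lowest to the highest library. SLC25A4 and SLC25A3 stand above all others, and 16 genes (open points) had too few reads to be tested.

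The adenine nucleotide carriers were read very unequally. Of 113905 reads on the 4 genes of this kind, 97.9% were on SLC25A4, 2.11% on SLC25A6, 0.0255% on SLC25A31 and 0.00351% on SLC25A5 (exact 95% binomial interval 0.000957% to 0.00899%, counting error only). SLC25A5, the form common in dividing cells, gave 4 reads in all, at most 1 per library. SLC25A31, known mainly from the testis, gave 29 reads in 9 of 12 libraries. These genes are close copies of one another, and how reads that fit more than 1 place were counted is not given in the sources used here, so reads may have been moved between them. Among the ATP-Mg/phosphate carriers, which adjust the adenine nucleotide content of the matrix, SLC25A23 had 43 to 236 reads per library, SLC25A25 had 10 to 61, SLC25A24 had 2 to 15 and SLC25A41 had none.

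Among the outer membrane channels, VDAC1 had 339 to 726 reads per library, VDAC2 had 308 to 731 and VDAC3 had 108 to 322. Among the subunits of the TOM complex, the small subunits TOMM7 (328 to 1054 reads) and TOMM6 (320 to 1143) were read most, followed by the receptor TOMM20 (137 to 502) and the small subunit TOMM5 (110 to 469). The receptors TOMM22 (53 to 187) and TOMM70 (39 to 281) and the pore TOMM40 (22 to 102) had fewer reads, and TOMM40L, a relative of the pore, was read in 11 libraries with 0 to 29 reads. TOMM34, a cytosolic co-chaperone, had 3 reads in all and TOMM20L had none.

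All 13 TIMM genes listed passed the filter. TIMM23 was not among the genes listed, so that part of the TIM23 complex is not covered here. TIMM8B, a small chaperone of the intermembrane space, had 99 to 400 reads per library and TIMM50, the presequence receptor of TIM23, had 74 to 245. TIMM17A and TIMM17B, alternative subunits of TIM23, were read to a like depth, with 1141 and 1112 reads in all. The carrier translocase TIMM22 had 15 to 117 reads, and TIMM29, which works with it, 2 to 18. The partner chaperones TIMM9 and TIMM10, which form 1 complex, had 475 and 636 reads in all.

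Among the remaining carriers, those of the malate-aspartate shuttle were well represented. SLC25A11, which exchanges 2-oxoglutarate for malate, had 294 to 692 reads per library. SLC25A12 and SLC25A13, the aspartate/glutamate carriers, had 65 to 194 and 20 to 87. SLC25A30, a relative of the uncoupling proteins, had 154 to 491 reads. SLC25A33 and SLC25A36, which carry pyrimidine nucleotides, had 27 to 195 and 14 to 50, and SLC25A26, which brings S-adenosylmethionine into the matrix, had 44 to 220. SLC25A28, the mitoferrin of most tissues, had 26 to 100 reads, while SLC25A37, the mitoferrin of red cell precursors, had 2 to 9 and was not tested. SLC25A42 (coenzyme A), SLC25A29 (basic amino acids), SLC25A14, SLC25A27, SLC25A43 and SLC25A48 also had too few reads, and SLC25A18, SLC25A41, SLC25A45 and SLC25A53 had no read, which allows up to 3 reads in a library, or a normalised count of 1.45 to 4.29. This limit covers counting only, and SLC25A18, SLC25A41 and SLC25A45 each overlap another gene in the RefSeq annotation.

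The tested carrier and import genes varied between cats about as much as other genes did. Their median coefficient of variation over 12 libraries was 36.03%, against 40.2% over all 8820 tested genes, and 27.0% against 29.4% among genes with a median of at least 100 reads (16 of the 56 and 1507 of all). VDAC2 varied least, with a normalised read count of 442 ± 64.2 (SD, n = 12 libraries) and a coefficient of variation of 14.5%. SLC25A46, an outer membrane protein involved in mitochondrial shape, varied by 14.9%, close to the 11.9% that counting alone would give at its depth.

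SLC25A20, the carnitine/acylcarnitine carrier through which long-chain fatty acids reach the matrix, varied most among the genes with at least 10 reads in every library, with a coefficient of variation of 76.6% against 13.3% from counting alone. Its normalised read count was 111, 49.7, 71.6 and 24.7 on flow cell A (cats 11, 23, 30 and 31), 34.9, 34.0, 115 and 12.5 on B (cats 10, 15, 35 and 36) and 39.2, 149, 30.04 and 19.9 on C (cats 22, 29, 37 and 38). Cats 11, 35 and 29 were high, and they lay on 3 different flow cells. SLC25A34, a carrier of unsettled substrate, ranged from 12.1 (cat 11) to 181 (cat 29), a coefficient of variation of 61.0%.

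**Figure D2:**
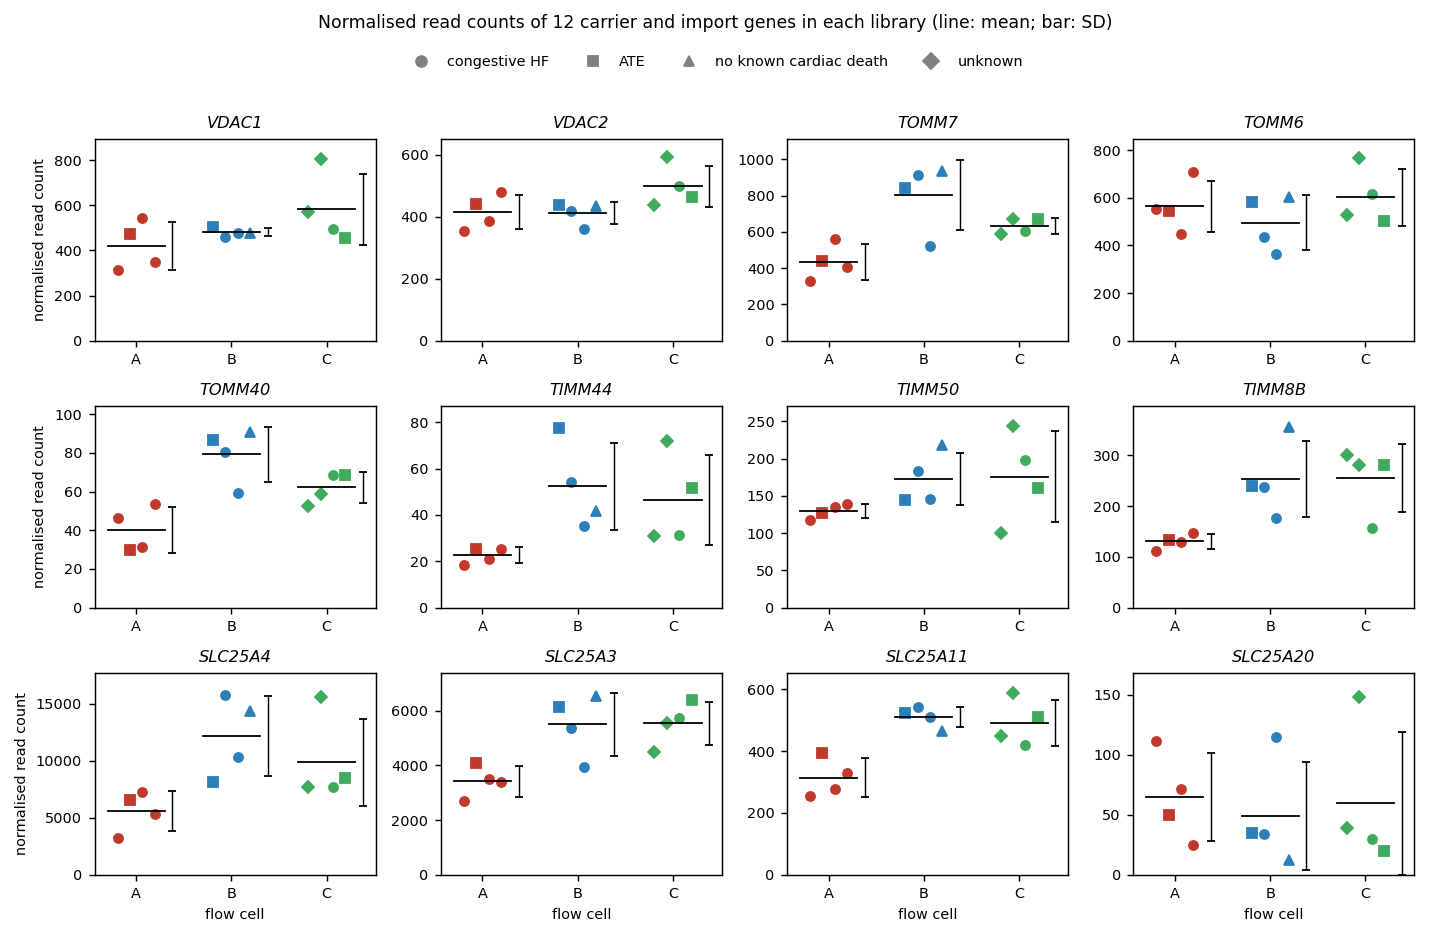
Normalised read count (vertical axis, from 0) of 12 carrier and import genes in each of 12 libraries, by flow cell, with the mean (line) and SD (bar, n = 4) and with symbols for the outcome. On flow cell A, SLC25A4, SLC25A11, TIMM44 and TIMM8B lie below every library of B and C, while VDAC2, TOMM6 and SLC25A20 overlap widely.

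Flow cells were compared first, because any difference between them bears on all later comparisons. Flow cell A was set against the other flow cells because earlier results of these data had shown it apart. The p-values of this contrast therefore follow a choice made on the same data. Against flow cells B and C together, 8 of the 56 tested genes were lower on A, 0 were higher and 48 did not pass (limma, Benjamini-Hochberg adjusted p under 0.05 over all tested genes). Over all 8820 genes, 3.56% were called lower and 1.81% higher. The median log2 difference of the 56 genes, A minus B and C, was -0.17, against 0.03 for all tested genes. At an unadjusted p under 0.05 there were 15 of the 56 genes and 21.9% of all genes. Every library of A lay below every other library for 4 of the 56 genes, SLC25A4, SLC25A11, TIMM44 and TIMM8B, as it did for 2.51% of all genes, and above every other library for 0 of the 56 and 1.7% of all genes.

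Both dominant carriers were among the 8. SLC25A4 had normalised read counts of 3204, 6552, 7237 and 5311 on A (cats 11, 23, 30 and 31), against a lowest value of 7677, a median of 9385 and a highest value of 15785 over the 8 libraries of B and C. The groups did not overlap, and cat 11 was the lowest of all. The log2 difference was -0.98 ± 0.27 (SE), a 1.97-fold lower level on A on the log2(normalised count + 1) scale used for all fold values here (limma adjusted p = 0.0464). SLC25A3 had 2700, 4081, 3506 and 3387 on A, against 3950, 5655 and 6560 (lowest, median and highest) on B and C. Only cat 23 on A exceeded the lowest library of B and C, cat 35. The level on A was 1.61-fold lower (log2 difference -0.69 ± 0.19, limma adjusted p = 0.0485).

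The third carrier was SLC25A11, the 2-oxoglutarate carrier, at 255, 395, 277 and 329 on A against 421, 509 and 589 (lowest, median and highest) on B and C, a 1.61-fold lower level (log2 difference -0.69 ± 0.17, limma adjusted p = 0.0318). The groups did not overlap. SLC25A12, the aspartate/glutamate carrier of the same shuttle, averaged 101 ± 28.99 (SD, n = 4) on A and 131 ± 29.5 (n = 8) on B and C and did not pass (limma adjusted p = 0.356), and its relative SLC25A13 averaged 34.7 ± 13.4 and 50.8 ± 23.6 (limma adjusted p = 0.379). SLC25A6 averaged 125 ± 23.2 and 224 ± 70.6 and missed the threshold (limma adjusted p = 0.0693). SLC25A34 had a log2 difference of -1.23 ± 0.44 and did not pass either (limma adjusted p = 0.113).

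In the outer membrane translocase, the pore and 1 small subunit passed. TOMM40 had 46.3, 29.6, 31.1 and 53.4 on A against 52.7, 68.5 and 90.8 (lowest, median and highest) on B and C, a 1.77-fold lower level (log2 difference -0.82 ± 0.22, limma adjusted p = 0.0418), with cat 31 just above the lowest library of C. TOMM7 had 328, 441, 562 and 408 on A against 522, 672 and 938, a 1.65-fold lower level (log2 difference -0.72 ± 0.20, limma adjusted p = 0.0426), with cat 30 above cat 35 of flow cell B. The other 6 tested TOMM genes did not pass. TOMM40L, with 0 to 29 reads per library, had the most negative estimate of the 56 genes, a log2 difference of -1.61 ± 0.68 (limma adjusted p = 0.180). TOMM20 had -0.27 ± 0.19 (limma adjusted p = 0.439), and TOMM6, TOMM5, TOMM22 and TOMM70 had values between -0.04 and 0.09.

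In the inner membrane translocases, 3 genes passed. TIMM44, which holds the mitochondrial HSP70 motor at the TIM23 channel, had 18.3, 25.5, 21.0 and 25.5 on A against 31.1, 46.7 and 77.8 (lowest, median and highest) on B and C. It was 2.04-fold lower (log2 difference -1.03 ± 0.28, limma adjusted p = 0.0423), without overlap. TIMM8B had 111, 133, 130 and 148 on A against 156, 261 and 356, also without overlap and 1.89-fold lower (log2 difference -0.92 ± 0.22, limma adjusted p = 0.0272). TIMM10, the chaperone that receives carriers in the intermembrane space, had 33.8, 39.0, 21.9 and 33.5 on A against 35.4, 59.8 and 99.8, and was 1.86-fold lower (log2 difference -0.89 ± 0.25, limma adjusted p = 0.0480). Cat 23 of A lay above cat 15 of B. TIMM9, the partner of TIMM10, averaged 39.4 ± 6.35 on A and 35.5 ± 8.08 on B and C and did not pass (limma adjusted p = 0.730).

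No VDAC gene passed. VDAC1 averaged 420 ± 108 on A and 531 ± 116 on B and C (limma adjusted p = 0.318), VDAC2 averaged 415 ± 56.2 and 455 ± 67.1 (limma adjusted p = 0.689) and VDAC3 averaged 166 ± 66.2 and 234 ± 63.1 (limma adjusted p = 0.214). Toward higher levels on A, the 2 tested genes with the most positive differences were weakly read. SLC25A1, the citrate carrier, had 9 to 21 reads on A and 0 to 10 on B and C (log2 difference 1.46 ± 0.56, limma adjusted p = 0.136), and SLC25A21, the oxodicarboxylate carrier, had 5 to 14 and 0 to 8 reads (log2 difference 1.24 ± 0.62, limma adjusted p = 0.253).

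**Figure D3:**
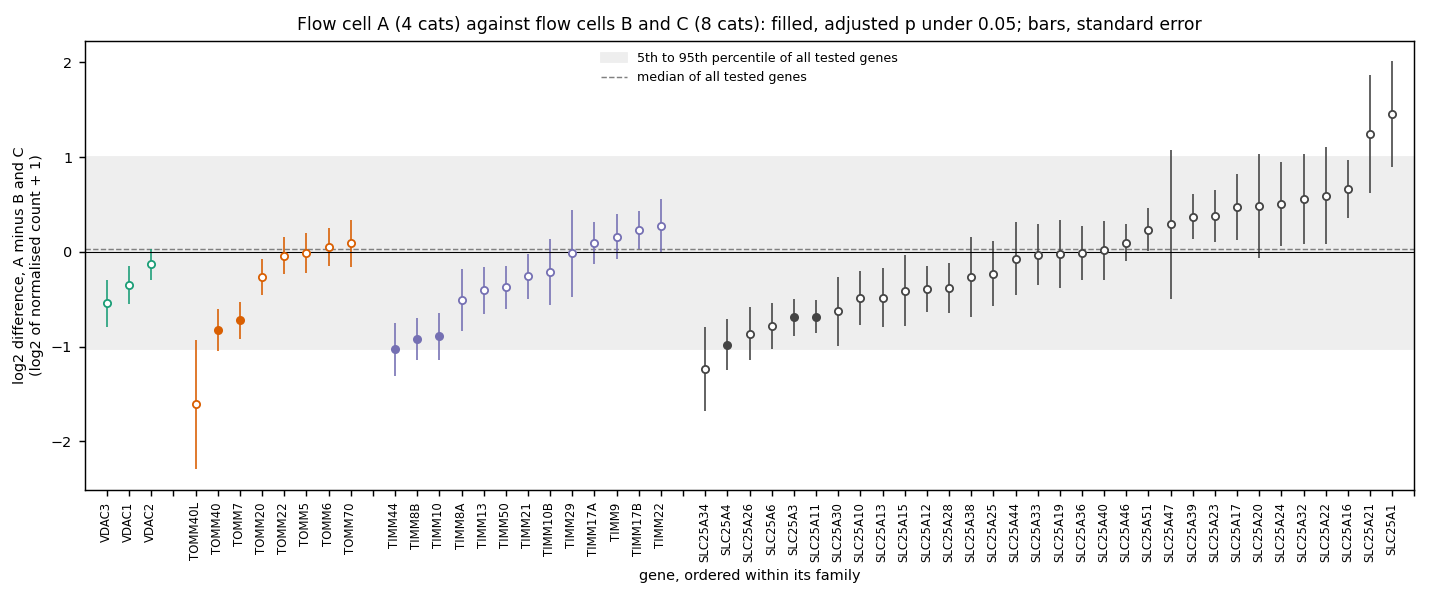
Log2 difference, flow cell A minus flow cells B and C, of the 56 tested genes (vertical axis, log2 of normalised read count + 1; bars are standard errors; 4 against 8 cats), ordered within each family. The 8 filled points, from TIMM44 (-1.03) to SLC25A11 (-0.69), passed the adjusted threshold and all lie below 0; the band and dashed line give the 5th to 95th percentile and the median of all 8820 tested genes.

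Other lists of mitochondrial genes are set beside the same background, 3.56% called lower, 1.81% called higher and a median log2 difference of 0.03 over all 8820 genes. Of 58 tested nuclear-encoded subunits of the respiratory chain and ATP synthase, 27 were lower on A, 0 were higher and 31 did not pass (limma adjusted p under 0.05), with a median log2 difference of -0.71. Of 78 mitochondrial ribosomal proteins, 9 were lower, 0 were higher and 69 did not pass, with a median of -0.33. Of 35 tested partner genes of import and transport, 5 were lower, 0 were higher and 30 did not pass, with a median of -0.30 and 11 estimates above 0. Of the 5, IMMT (log2 difference -1.02), CHCHD3 (-1.005) and APOO (-0.87) code for proteins of the MICOS complex, which shapes the cristae. ROMO1 (-0.85) and MTCH1 (-0.97), an outer membrane relative of the carriers, were the others. The MICOS genes CHCHD6 (-0.11, limma adjusted p = 0.882) and APOOL (-0.46, limma adjusted p = 0.401) did not pass. HSPA9, the HSP70 of the import motor, had a log2 difference of -0.14, HSPD1, the matrix chaperonin, 0.47 and UCP2, an uncoupling protein, 1.37, and these 3 did not pass.

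Of the 6 lists of cell type markers, 1 separated flow cell A from B and C. Summed smooth muscle markers (4 of 4 detected) took 360 to 1023 CPM on A and 66.7 to 235 on B and C, without overlap. The other 5 overlapped: fibroblast markers (7 of 7 detected) took 950 to 3100 CPM on A and 208 to 1519 on B and C, endothelial markers (5 of 5) took 404 to 754 and 240.2 to 1098, and macrophage and other leukocyte markers (6 of 6) took 128 to 304 and 56.4 to 720.2. Adipocyte markers (4 of 4) took 1.27 to 4.94 and 1.14 to 9.73, and cardiomyocyte markers (8 of 8 analysed) took 104462 to 148389 and 104642 to 160814. Among smooth muscle, among fibroblast and among macrophage and other leukocyte markers, 1 each had no read in at least 1 library. The same held for 3 of the 4 adipocyte markers. The part of the smooth muscle difference in the lower carrier and import levels was not tested.

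The count of 8 depended on single libraries. The count over all genes changed too, but not always in the same direction. Leaving out cat 11 of flow cell A gave 0 called genes among the 56 and 54 among all 8820, against 474 in all with every library. Leaving out cat 31 gave 0 and 165, and leaving out cat 29 gave 1 and 314. Leaving out cat 15, 36 or 38 gave 2 of the 56, with 283 to 362 in all. Leaving out cat 30, 10 or 37 gave 3, with 384 to 515 in all, and leaving out cat 22 gave 5, with 418 in all. Leaving out cat 23 gave 6, with 529 in all, and leaving out cat 35 gave 8, with 502 in all. Without the 2 libraries of unknown outcome 0 of the 56 and 255 of all genes were called, and with a block for the barcode position 5 and 569. When every gene with a read was tested, 1 of 67 carrier and import genes and 331 of 18070 genes were called. Among the HF cats alone, 3 on A and 3 on B and C, the median log2 difference was -0.12 for the 56 genes and 0.02 for all genes. Flow cell C gave only 1 of these cats, so the spread there could not be measured. This subset was chosen after the data were seen. All 8 genes had estimates below 0 under each of 22 alternatives. They had been picked as lower on A from the same libraries, so the shared sign is not separate evidence.

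No difference between flow cells B and C was detected in these genes. Of the 56 tested genes, 0 passed (limma adjusted p under 0.05), as did 0% of all 8820 genes; at an unadjusted p under 0.05 there were 2 of the 56 and 7.89% of all. On the recovered reads, edgeR called 0 of the 56 and 0% of all genes, with 1 of the 56 and 7.61% of all at an unadjusted p under 0.05. DESeq2 called 0 of the 56 and 0.261% of all genes, with 1 of the 56 and 7.54% of all at an unadjusted p under 0.05. The 2 genes were the receptor TOMM70, at 64.2 ± 10.9 (SD, n = 4) on B and 118 ± 31.8 on C (limma adjusted p = 0.476), and SLC25A30, at 250.2 ± 98.4 and 450 ± 106 (limma adjusted p = 0.619). For 2 of the 56, SLC25A30 and VDAC2, all libraries of B lay below all of C, as they did for 2.05% of all tested genes. For VDAC2 the highest library of B (437.38) nearly met the lowest of C (437.45).

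Congestive HF was next set against ATE. The study compared these outcomes in histology and qPCR, but ranked its sequenced genes by correlation with traits. With 6 against 3 cats, 0 of the 56 genes passed (limma adjusted p under 0.05) and 0% of all 8820 genes. At an unadjusted p under 0.05 there were 2 of the 56 and 4.43% of all genes, and edgeR and DESeq2 on the recovered reads each called 0 of the 56, with 2 at an unadjusted p under 0.05. edgeR called 0% of all genes, with 411 of 8820 at an unadjusted p under 0.05, and DESeq2 called 0.0113%, with 4.97%. With flow cell as a covariate, limma called 0 of the 56 and 0% of all genes. At an unadjusted p under 0.05 that fit gave 3 of the 56 and 5.35% of all. The median log2 difference, HF minus ATE, was -0.09 for the 56 genes and 0 for all genes to 2 decimals. Both dominant carriers overlapped between outcomes. SLC25A4 had a lowest value of 3204, a median of 7471 and a highest value of 15785 in HF cats, against 6552, 8165 and 8491 in the 3 ATE cats (cats 23, 10 and 38), a log2 difference of -0.07 ± 0.42. SLC25A3 had 2700, 3728 and 5742 in HF cats against 4081, 6147 and 6395 in ATE cats, a log2 difference of -0.45 ± 0.31 (limma adjusted p = 0.956).

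The 2 genes past the unadjusted threshold were SLC25A47, a carrier known mainly from liver, and SLC25A26. SLC25A47 ranged from 0 to 3.38, with a median of 2.06, in HF cats and stood at 9.40, 11.3 and 8.09 in the ATE cats 23, 10 and 38. The outcomes did not overlap, as for 1.02% of all genes in this direction, but the gene had 11 reads at most in any library and shares its place with SLC25A29 in the RefSeq annotation (log2 difference -1.95 ± 0.68, limma adjusted p = 0.956). SLC25A26 ranged from 35.1 to 106, with a median of 50.6, in HF cats and stood at 75.2, 91.3 and 162 in ATE cats (log2 difference -0.87 ± 0.40, limma adjusted p = 0.956). Cat 15 and cat 37 among the HF cats lay within the ATE range. Without cat 38, the highest ATE cat, the log2 difference of SLC25A26 was -0.56.

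Import genes gave the same picture of overlapping outcomes. VDAC1 averaged 440 ± 89.8 (SD, n = 6) in HF and 478 ± 25.1 (n = 3) in ATE, TOMM40 averaged 56.5 ± 17.2 and 61.6 ± 29.2, TIMM50 averaged 154 ± 31.04 and 144 ± 16.4, and TIMM8B averaged 160 ± 44.4 and 218 ± 76.4 (limma adjusted p of 0.956 or more for each). For SLC25A20 the means were 64.5 ± 41.2 and 34.8 ± 14.9. Of the partner genes, 0 of 35 passed, and of the respiratory subunits, 0 of 58, with medians of -0.02 and -0.21 and with 2 and 0 at an unadjusted p under 0.05.

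Age and myocardial fibrosis, both taken from the study's cohort table through the cat number, were compared with each gene by Spearman's rho with an exact permutation test, in the 9 cats of known age and the 8 cats with a fibrosis percentage. For age, 0 of the 56 genes passed after adjustment over all 8820 genes, as did 0% of all genes, and 2 of the 56 passed at an unadjusted p under 0.05 against 4.72% of all. The correlation coefficient was below 0 for 28 genes and above 0 for 26. SLC25A36, the pyrimidine nucleotide carrier, had the most positive value, with rho = 0.833 (exact permutation p = 0.00827, adjusted p = 0.826, 9 cats) and Pearson's r = 0.807 (exact permutation p = 0.00785). Cat 30 was farthest from the median age, with cats 15 and 36 next and equally far. The r of SLC25A36 was 0.621 without cats 30 and 15, 0.711 without cats 30 and 36, and 0.828 after centring each flow cell. SLC25A15, the ornithine carrier, had rho = -0.733 (exact permutation p = 0.0311, adjusted p = 0.904) and r = -0.673 (exact permutation p = 0.0497), with r = -0.613 and -0.637 without these pairs and -0.717 within flow cells. A limma slope on age gave 5 of the 56 and 4.58% of all genes at an unadjusted p under 0.05. With flow cell as a covariate it gave 5 and 11.5%. After adjustment, 0 of the 56 and 0% of all genes passed in both fits.

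For fibrosis, 0 of the 56 genes and 0% of all genes passed after adjustment, and 1 of the 56 against 2.83% of all genes passed at an unadjusted p under 0.05. SLC25A13, an aspartate/glutamate carrier, had rho = -0.738 (exact permutation p = 0.0458, adjusted p = 1, 8 cats) and r = -0.678 (exact permutation p = 0.0687). Leaving out cats 23 and 15, whose fibrosis lay farthest from the median, r was -0.580, and within flow cells it was -0.691 over 7 cats. SLC25A4 had rho = 0.117 with age (exact permutation p = 0.776, adjusted p = 1) and -0.214 with fibrosis (exact permutation p = 0.619, adjusted p = 1). SLC25A3 had -0.183 (exact permutation p = 0.644, adjusted p = 0.998) and 0.0238 (exact permutation p = 0.977, adjusted p = 1), and VDAC1 had 0.5 (exact permutation p = 0.178, adjusted p = 0.932) and -0.405 (exact permutation p = 0.327, adjusted p = 1). In all, 112 relations of these genes were computed over both traits, each adjusted over every gene tested for that trait.

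**Figure D4:**
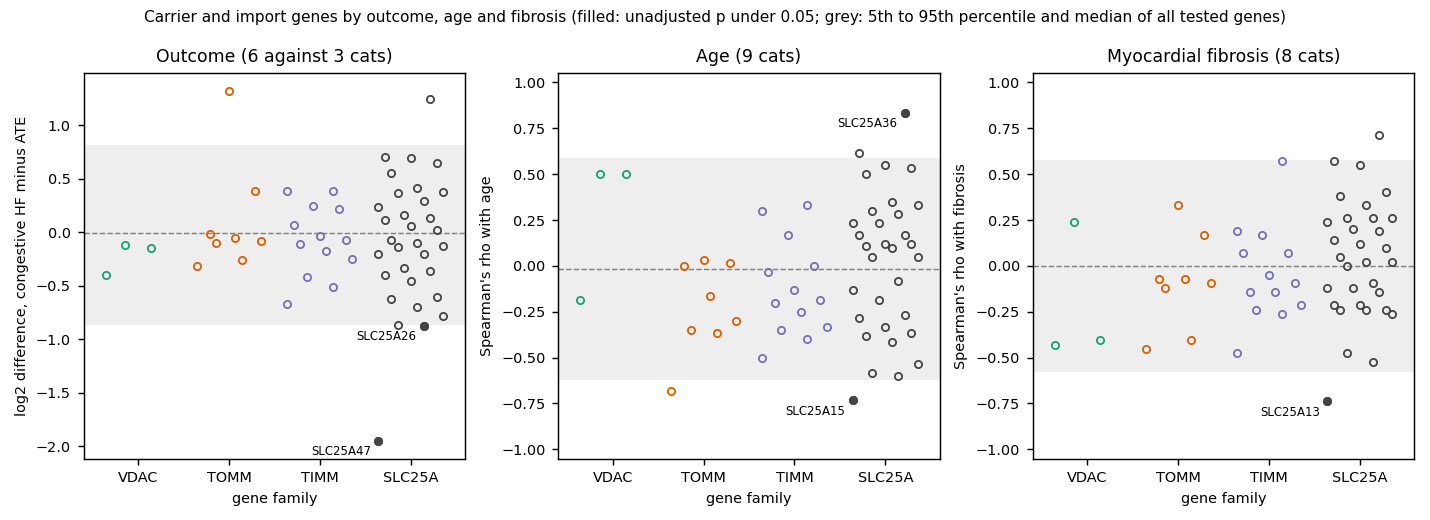
Values of the 56 tested genes by family: log2 difference between congestive HF and ATE (left, 6 against 3 cats), Spearman's rho with age (middle, 9 cats) and with myocardial fibrosis (right, 8 cats). Filled points, SLC25A47 and SLC25A26, SLC25A36 and SLC25A15, and SLC25A13, had an unadjusted p under 0.05; no gene passed adjustment, and most lie inside the band from the 5th to the 95th percentile of all tested genes.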

How the data were processed

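RNA of the left ventricle of 12 cats was sequenced directly (kit SQK-RNA002 per the labels and methods; the study's resource list names SQK-RNA004). According to the methods and labels, the authors aligned the reads to felCat9 (Minimap2) and assigned them to genes (FeatureCounts); versions, strand setting and treatment of reads with several places are not given in the sources used here. The deposited signal values are reads per gene divided by a library size factor: 100% of values came out as whole reads within a tolerance of 0.001, and recomputed median-of-ratios factors differed by a relative 2.44e-15 at most. Library totals of 789257 to 2263110 reads set the precision, and intervals cover counting error only.

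Carrier and import genes were taken by symbol. The genes, role groups and partner, respiratory and cell type lists were chosen with earlier results of these data known. So was the contrast of flow cell A against B and C. Named genes are those listed by role, in each comparison up to 6 higher and 6 lower genes by adjusted p, where under 0.05, the 6 with most reads and those without a read. Others were named after their values were seen (SLC25A14, SLC25A15, SLC25A21, SLC25A27, SLC25A43, SLC25A47, SLC25A48 and named partners).

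Genes for which 3 or more of 12 libraries held 10 or more reads were tested on log2(value + 1) with limma 3.58.1 (moderated test with an intensity trend, R 4.3.3), or for traits with Spearman's rho and exact permutation (Python 3.11.15, numpy 2.4.6), all two-sided, with Benjamini-Hochberg adjustment over all tested genes. The flow cell comparisons used all 12 libraries, and the outcome and trait comparisons left out the 2 libraries of unknown outcome. edgeR 4.0.16 and DESeq2 1.42.0 on the recovered reads, other scalings, pseudocounts of 0.5 and 2, other filters, a barcode block and leaving out libraries were alternatives. Scripts were tested on simulated data. The 13 mitochondrially encoded genes listed had 0 reads. RefSeq gene names matched 71 of the 72 genes, of which 30 overlap another gene there. Among the 30 are SLC25A3, SLC25A4 and TIMM8B, which were called lower on A, and SLC25A20 and TOMM20L. How overlap moved reads was not tested. The RefSeq table is of another assembly, so no coordinates are given.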

Additional observations from a re-analysis of the deposited data

Results flagged for a closer look

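Values of 46 carrier and import genes were checked for single outlying libraries within each flow cell (4 libraries) and within the 6 HF cats, on the log2(normalised read count + 1) scale with Dixon's 95% limit. Of 184 groups of values, 12 had a library whose gap to its nearest neighbour exceeded the limit; chance flags about 1 group in 20. The values are given without an explanation.

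On flow cell C, cat 29 was involved in 4 of the 12. SLC25A4, the main adenine nucleotide carrier, stood at 15581 in cat 29 against 7677 to 8491 in the other 3 cats, and its relative SLC25A6 at 311 (281 reads) against 163 to 165. The receptor TOMM22 stood at 124 against 75.7 to 78.7, and the receptor TOMM70 at 70.9 against 124 to 139. On the same flow cell TIMM8B stood at 156 in cat 37 against 281 to 301.

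On flow cell B, SLC25A6 stood at 142 in cat 10 against 276 to 289. The chaperone TIMM13 stood at 46.3 in cat 36 against 60.7 to 62.0. Cat 35 was high for TIMM10B at 22.1 (28 reads) against 12.3 to 13.5, and low for TIMM21, a subunit of TIM23, at 30.7 against 40.9 to 41.7.

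Among the HF cats, cat 15 was high for the mitoferrin SLC25A28, at 88.5 against 38.3 to 45.7, and low for the pyrimidine nucleotide carrier SLC25A33, at 36.8 against 94.1 to 149. SLC25A46 stood at 94.9 in cat 31 against 62.3 to 70.5.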

How the results depend on the processing

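The 8 of 56 genes called lower on flow cell A became 1 of 67 when every gene with a read was tested (16 at an unadjusted p under 0.05), 5 with edgeR, 5 with a block for the barcode position, 0 without the 2 libraries of unknown outcome (14 at an unadjusted p under 0.05) and 0 among the HF cats alone, an alternative added after seeing the data. Leaving out 1 library at a time gave 0 to 8, and the count stayed within 1.5 times of 8 only without cat 23 or cat 35. It was 9 of 41 among genes with 10 reads in every library and 10 of 56 with DESeq2. TIMM8B was called in 18 of its 22 alternatives and TOMM7 in 7. For flow cell B against C, HF against ATE, age and fibrosis, 0 genes were called under each of 21, 18, 16 and 15 alternatives. The replicate numbers of the labels are cat numbers and were not shared between groups, so cats could not be paired; the shared barcode positions gave the block above. Depth limits the 16 untested genes and weakly read ones such as SLC25A47. With 6 against 3 cats, or 8 or 9 cats for a trait, and adjustment over 8820 genes, smaller differences may go undetected. The causes of changed counts were not tested.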
